A study of Mus musculus with 8 samples.

Results

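The genes described here are 35 members of the p53 pathway: p53 itself (Trp53), its main inhibitors, and genes that p53 is known to switch on. Members were taken by gene symbol from the deposited count table, and 35 of the 35 symbols were found among its 18306 genes. Of these, 32 had enough counts to be tested. The study treated C3H10T1/2 cells, an established mouse embryo line with mesenchymal stem cell properties, with sphingosine 1-phosphate (S1P), a bioactive lipid with receptors at the cell surface, to ask which genes respond. Both groups were kept without serum for 24 h. The 4 S1P libraries (replicates 5 to 8) then had 24 h with 5 µM S1P, and the 4 vehicle libraries (replicates 1 to 4) had 24 h with the fatty acid-free albumin that carries it. All libraries came from a single cell line. The labels do not say whether the libraries of a group were separate cultures, so the p-values rest on library-to-library spread that may be technical.

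p53 is a transcription factor that is held at a low level by the ubiquitin ligase Mdm2 and its relative Mdm4. DNA damage, ribosome stress and other insults release it, and it then binds paired decamer sites near its targets, which act in cell cycle arrest, cell death, DNA repair and metabolism. Mdm2 is itself a target, so the pathway restrains itself. In fibroblasts and other mesenchymal cells the pathway is best known for halting division after damage.

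Libraries summed to 13750303 to 13761544 counts, and values are given as CPM (counts relative to library size, after composition scaling). A count of 0 allows up to 0.213 to 0.223 CPM (3 counts, counting error alone). Of the mesenchymal markers checked, 10 of 10 were present, at mean levels of 19.8 to 9994 CPM. The 4 blood markers had means of at most 0.639 CPM. Of 4 endothelial markers, Tek had a mean of 43.0 CPM and the others at most 0.163 CPM. Vehicle replicate 4 stood apart from the other libraries, with 2.504% mitochondrially encoded counts against 3.45% to 3.83% in the rest. Values without it are given below for the genes it moves most.

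After S1P, 3 of the 32 tested members rose and 1 fell, while 28 did not pass the test. Plk2, Perp and Rps27l rose, and Pltp fell. Over all 11844 genes tested, 5.6% rose and 2.9% fell, 8.5% together (edgeR quasi-likelihood test, Benjamini-Hochberg adjusted p under 0.05), so the members' share of calls was close to that of genes in general. The median log2 fold change was 0.03 over the members and -0.04 over all genes. It was positive for 18 members and negative for 14. In 4 members every S1P library lay above every vehicle library and in 2 every S1P library lay below, against 11.9% and 7.21% of all genes (19.1% together). At an unadjusted p under 0.05, 6 members were higher and 2 lower, against 13.2% and 11.7% of all genes (24.9% together). Among the 28 uncalled members, 24 had values between -0.5 and 0.5 on the log2 scale. The calls depended on single libraries: no member passed without S1P replicate 6 or without S1P replicate 8, when 2.79% and 3.01% of all genes rose and 0.845% and 0.904% fell. In 24 of the 28 uncalled members, leaving out some single library reversed the log2 fold change or moved it over 1.5 times. This happened in 0 of the 4 called members. Values near 0 pass such a ratio easily, and calls favour large changes with small errors. These counts therefore do not compare the steadiness of called and uncalled members, and the share over all genes was not computed. DESeq2 called 5 members higher and 2 lower, and it also called more genes in general, 8.17% of them higher and 6.82% lower.

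**Figure D1:**
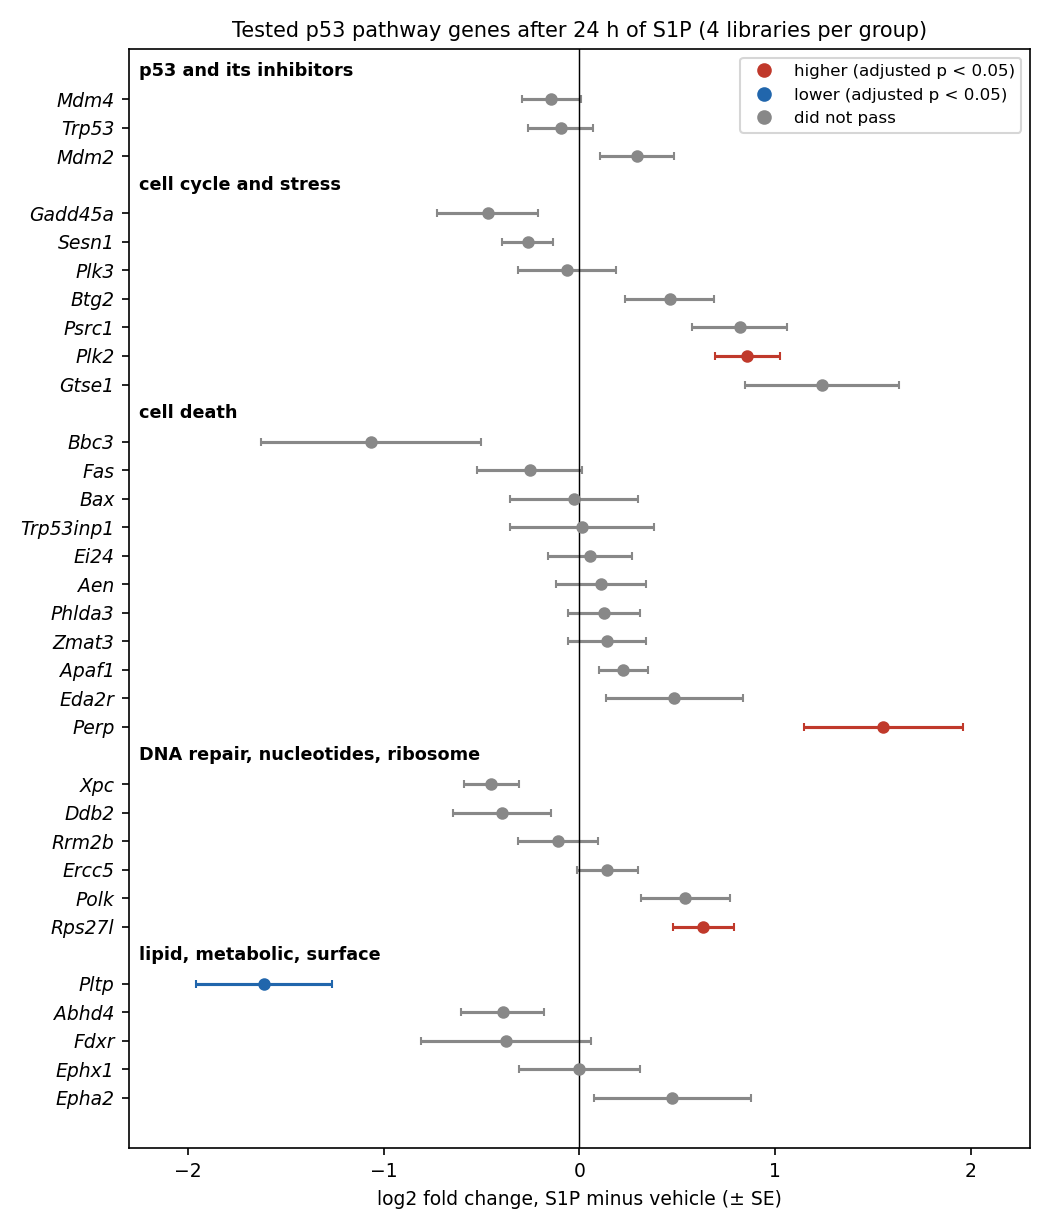
Log2 fold change of each tested member, S1P minus vehicle, with its standard error as a bar, grouped by role (4 libraries per group). Plk2, Perp and Rps27l lie to the right and Pltp lies to the left as the coloured points that passed the test, and 24 of the 28 grey points lie between -0.5 and 0.5.

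The core of the pathway did not pass the test. Trp53 (chromosome 11, 69393661 to 69405575 in mm9, the build of all gene positions from the deposited table) was at 141.3, 155.8, 158.0 and 239.5 CPM in vehicle replicates 1 to 4. In S1P replicates 5 to 8 it was at 165.8, 174.0, 149.7 and 160.3 CPM. The groups overlapped, and vehicle replicate 4 was the highest library of all. The log2 fold change of Trp53 was -0.10 (SE 0.17, edgeR adjusted p = 0.741), and it was 0.10 without vehicle replicate 4. Mdm2 (chromosome 10, 117125744 to 117148014), both the ligase that marks p53 for breakdown and a target of p53, was at 126.4, 97.4, 112.6 and 85.7 CPM in vehicle. After S1P it was at 179.0, 113.4, 113.9 and 111.4 CPM. A single S1P library, replicate 5, was high and the other 3 lay within the vehicle range. Mdm2 had a log2 fold change of 0.29 (SE 0.19, edgeR adjusted p = 0.358), and of 0.10 without S1P replicate 5. Mdm4 (chromosome 1, 134886222 to 134922143), which binds p53 and blocks its activity, was at 83.5, 77.1, 88.2 and 58.5 CPM in vehicle and at 63.8, 59.9, 79.5 and 74.8 CPM after S1P. The groups overlapped, with a log2 fold change of -0.14 (SE 0.15, edgeR adjusted p = 0.582).

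Among cell cycle and stress genes, Plk2 rose and 6 of 7 members did not pass. Plk2, a polo-like kinase of early G1 and of centriole duplication (chromosome 13, 111185052 to 111191252), was at 189.5, 266.6, 231.1 and 255.2 CPM in vehicle. It was at 313.2, 475.8, 462.3 and 456.2 CPM after S1P, so every S1P library lay above the vehicle libraries and replicate 5 lay nearest to them. The rise was 1.81-fold, from 235.6 ± 34.1 to 426.9 ± 76.2 CPM (SD, n = 4), with a log2 fold change of 0.86 (SE 0.16, edgeR adjusted p = 0.0131). The call was lost without S1P replicate 6 (adjusted p = 0.0533) or 8 (adjusted p = 0.0502), and the log2 fold change stayed between 0.74 and 0.98 with any single library left out. Plk3, a polo-like kinase of the stress response, was at 10.7 ± 3.33 CPM in vehicle and 10.2 ± 2.18 CPM after S1P.

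Gtse1 and Psrc1, both microtubule-binding proteins of dividing cells, had large log2 fold changes that did not pass. Gtse1 (chromosome 15, 85689937 to 85707202), which moves p53 out of the nucleus in G2, was at 5.40, 8.01, 8.44 and 22.5 CPM in vehicle. After S1P it was at 30.9, 25.7, 21.7 and 26.3 CPM. Only vehicle replicate 4 reached the S1P range. Its log2 fold change was 1.24 (SE 0.39, edgeR adjusted p = 0.0862), and Gtse1 passed without vehicle replicate 4 (log2 fold change 1.84, edgeR adjusted p = 0.00306) and with limma-voom (adjusted p = 0.0308) or DESeq2 (adjusted p = 0.0213). Psrc1 (chromosome 3, 108186557 to 108191349), a spindle protein, was at 19.8, 13.1, 11.4 and 16.3 CPM in vehicle and at 38.4, 24.4, 19.9 and 24.1 CPM after S1P. The groups did not overlap, but S1P replicate 7 and vehicle replicate 1 nearly met. The log2 fold change of Psrc1 was 0.82 (SE 0.24, edgeR adjusted p = 0.0696), and DESeq2 called it (adjusted p = 0.0205). Genes of mitosis moved in the same direction in these libraries: 14 of 15 listed G2/M genes passed higher, a list chosen with that result known. Their mean was 4.51 to 5.995 log2 CPM in vehicle, highest in replicate 4, and 6.985 to 7.42 log2 CPM after S1P. The part of the mitotic genes in the values of Gtse1 and Psrc1 was not tested. In bulk libraries, more cells at a stage of the cycle and more RNA per cell cannot be told apart.

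The other members of this group did not pass and had overlapping groups. The antiproliferative gene Btg2 was at 65.8 ± 14.7 CPM in vehicle and 90.5 ± 27.0 CPM after S1P (SD, n = 4). Gadd45a, which binds Cdk1 and the replication clamp after stress, was at 32.7 ± 11.1 and 23.6 ± 5.28 CPM. Sesn1, a sestrin that restrains the growth kinase mTORC1, was at 51.0 ± 6.22 and 42.5 ± 5.00 CPM. Btg2 had a positive log2 fold change (0.46, and 0.24 without S1P replicate 5). Gadd45a and Sesn1 had negative ones (-0.47 and -0.26), and that of Gadd45a was -0.29 without vehicle replicate 3.

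**Figure D2:**
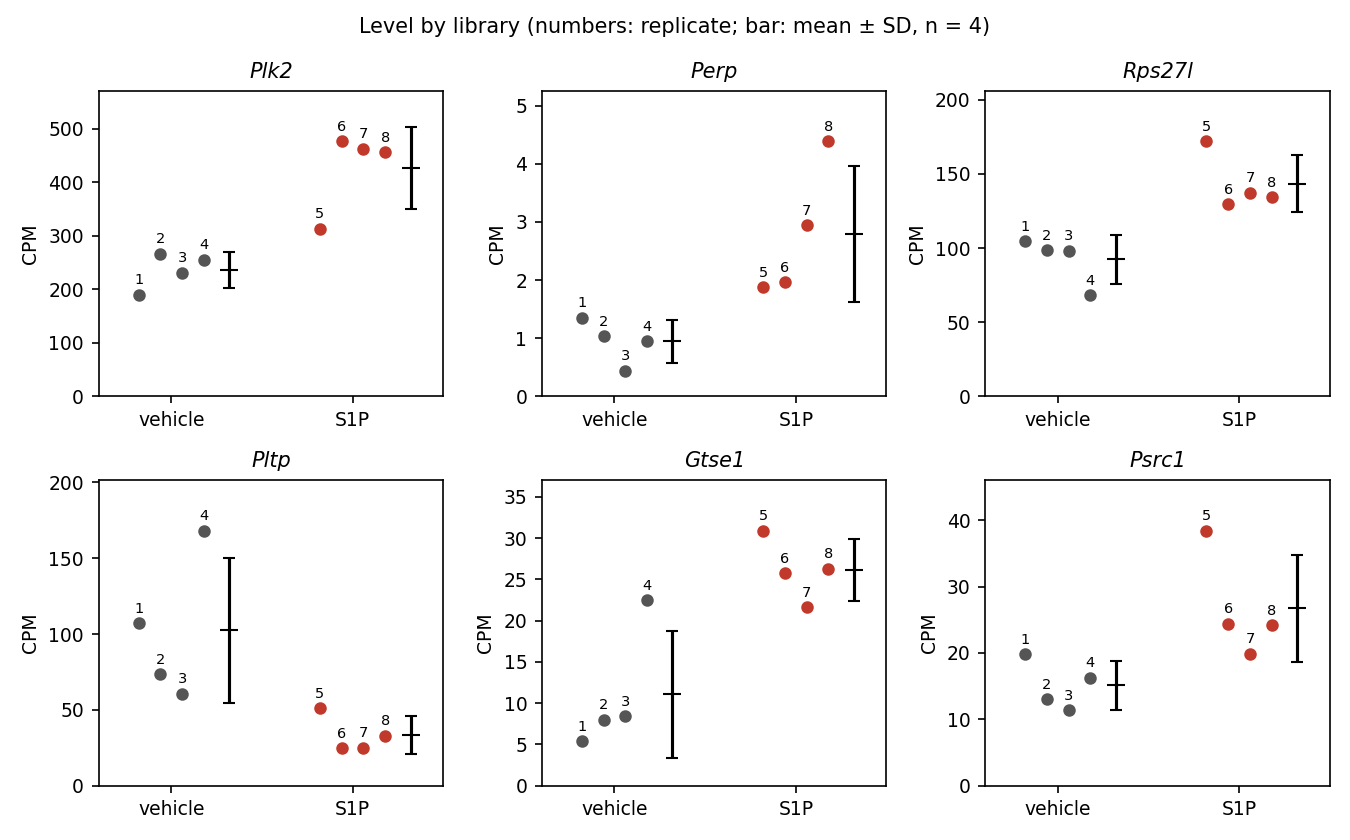
CPM in every library for the 4 members that passed and for Gtse1 and Psrc1, with replicate numbers beside the points and the mean ± SD (n = 4) as a black bar. The S1P points of Plk2, Perp and Rps27l lie above the vehicle points and those of Pltp lie below, while vehicle replicate 4 of Gtse1, at 22.5 CPM, reaches the S1P range.

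Of 13 cell death members, 11 were tested, and Perp alone rose. Perp (chromosome 10, 18564677 to 18577079), a membrane protein of desmosomes that p53 induces during apoptosis, was at 1.35, 1.04, 0.444 and 0.944 CPM in vehicle. It was at 1.88, 1.96, 2.94 and 4.38 CPM after S1P. These values rest on 6 to 19 counts per vehicle library and 26 to 61 per S1P library, and the groups did not overlap. Perp rose 2.93-fold (edgeR adjusted p = 0.0456, log2 fold change 1.55 with an SE of 0.40). This call survived 1 of 8 leave-one-out fits, that without S1P replicate 5 (adjusted p at most 0.135 in the others), and limma-voom did not call it (adjusted p = 0.0503).

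The genes of the mitochondrial death pathway did not pass. Bax, which permeabilises the outer mitochondrial membrane, was at 40.3, 27.8, 31.8 and 80.5 CPM in vehicle and at 59.9, 43.6, 35.8 and 37.7 CPM after S1P. Vehicle replicate 4 was again the highest library, and the log2 fold change of Bax was -0.03 (SE 0.33, edgeR adjusted p = 0.965) with it and 0.41 without it. Bbc3, which encodes the BH3-only protein PUMA (chromosome 7, 16894765 to 16903754), was at 2.49, 2.08, 1.78 and 10.4 CPM in vehicle. After S1P it was at 1.81, 1.89, 2.20 and 2.08 CPM. Its log2 fold change of -1.06 (SE 0.56, edgeR adjusted p = 0.271) rested on vehicle replicate 4, and without that library it was -0.08. Pmaip1, which encodes the BH3-only protein NOXA, had at most 3 counts in a library and was not tested. Apaf1, the scaffold of the apoptosome, was at 93.0 ± 14.6 CPM in vehicle and 108.7 ± 4.63 CPM after S1P and did not pass. Its span shares 231 bases with Ikbip, which averaged 221.4 CPM.

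Death receptors and the remaining death genes did not pass. Fas, the death receptor of the TNF receptor family, was at 302.8 ± 113.5 CPM in vehicle and 253.8 ± 64.5 CPM after S1P (SD, n = 4). Eda2r, the ectodysplasin receptor, was at 41.7 ± 20.03 and 58.4 ± 19.7 CPM. Phlda3, which competes with the kinase Akt for membrane lipids, was at 118.2 ± 27.2 and 129.0 ± 21.0 CPM. The log2 fold changes of these 3 were -0.25, 0.49 and 0.13. With single libraries left out, Fas ranged from -0.45 (without S1P replicate 7) to -0.0125 (without vehicle replicate 3), and Eda2r from 0.23 (without S1P replicate 5) to 0.80 (without vehicle replicate 1). For Trp53inp1, a stress protein that promotes p53 activity, Ei24, an endoplasmic reticulum protein, Zmat3, an RNA-binding protein, and the nuclease gene Aen they were 0.01, 0.05, 0.14 and 0.11. All of these groups overlapped. Trp53i11 had at most 5 counts in a library and was not tested.

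In the group of DNA repair, nucleotide supply and ribosome genes, Rps27l rose and 5 of 6 members did not pass. Rps27l (chromosome 9, 66793693 to 66797523), a ribosomal protein relative that p53 induces and that binds Mdm2, was at 104.8, 98.5, 98.2 and 68.1 CPM in vehicle. After S1P it was at 171.9, 129.7, 137.3 and 134.4 CPM, so the groups did not overlap. The rise was 1.55-fold (edgeR adjusted p = 0.0366, log2 fold change 0.63 with an SE of 0.16). It survived 2 of 8 leave-one-out fits (vehicle replicate 1 or 4 left out) and missed in the other 6 (adjusted p at most 0.0832). Rps27l resembles the ribosomal protein gene Rps27, and how reads shared by such copies were assigned is not given in the sources used here. Rps27 itself had a log2 fold change of -0.23 (558.0 ± 59.8 CPM in vehicle, 477.2 ± 26.4 after S1P) and did not pass, although its groups did not overlap either.

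Polk, a polymerase that copies past damaged bases (chromosome 13, 97250444 to 97312640), was at 34.5, 21.6, 27.7 and 18.5 CPM in vehicle and at 50.8, 31.8, 34.4 and 31.8 CPM after S1P. Vehicle replicate 1 lay above 3 of the 4 S1P libraries, and the log2 fold change of 0.54 did not pass (SE 0.23, edgeR adjusted p = 0.18). The damage sensors of nucleotide excision repair had negative log2 fold changes. Xpc (chromosome 6, 91439099 to 91466078), which finds distorted DNA, was at 25.5, 19.2, 19.3 and 23.6 CPM in vehicle and at 14.9, 16.1, 17.0 and 16.2 CPM after S1P. Its groups did not overlap, and its log2 fold change of -0.45 (SE 0.14) missed the threshold (edgeR adjusted p = 0.0845) but was called by DESeq2 (adjusted p = 0.0196). Ddb2, which recognises ultraviolet lesions, was at 8.06 ± 2.24 and 6.12 ± 1.31 CPM, with a log2 fold change of -0.40. The span of Ddb2 shares 2927 bases with Acp2, which averaged 99.9 CPM, and that of Xpc shares 250 bases with Lsm3 at 33.1 CPM. That of Polk shares 151 bases with Col4a3bp at 76.8 CPM, so these values are uncertain to that extent. The excision nuclease Ercc5 and the ribonucleotide reductase subunit Rrm2b had log2 fold changes of 0.14 and -0.11.

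Of 6 members with lipid, metabolic, secreted or surface roles, Pltp fell. Pltp (chromosome 2, 164664818 to 164683411), the phospholipid transfer protein, was at 107.0, 73.6, 60.7 and 168.1 CPM in vehicle. After S1P it was at 51.1, 24.8, 25.1 and 33.1 CPM, below every vehicle library. The fall was 3.05-fold, from 102.4 ± 48.0 to 33.5 ± 12.3 CPM (SD, n = 4), with a log2 fold change of -1.61 (SE 0.35, edgeR adjusted p = 0.0224). It was the largest log2 fold change in size among the tested members. The call was lost without any of S1P replicates 6, 7 and 8 (adjusted p at most 0.0816). Over the leave-one-out fits the log2 fold change ran from -1.89 (without S1P replicate 5) to -1.26 (without vehicle replicate 4). The span of Pltp shares 1915 bases with Ctsa, a lysosomal protease gene at 275.3 ± 49.6 CPM in vehicle and 191.0 ± 37.7 after S1P, which did not pass.

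Ephx1, the microsomal epoxide hydrolase, had nearly the same mean in both groups, 301.0 ± 129.4 CPM in vehicle and 301.1 ± 105.1 after S1P. The lipase-like gene Abhd4 was at 153.5 ± 39.5 and 116.9 ± 29.1 CPM, with a log2 fold change of -0.39. Fdxr, the reductase that feeds electrons to mitochondrial cytochromes P450, was at 3.60 ± 2.69 and 2.77 ± 0.368 CPM. Vehicle replicate 4 was at 7.63 CPM, and the log2 fold change of Fdxr was -0.38 with that library and 0.29 without it. The ephrin receptor gene Epha2 was at 10.4 ± 6.98 CPM in vehicle, 20.7 CPM of it in vehicle replicate 4, and at 14.5 ± 3.61 CPM after S1P. Its log2 fold change was 0.48, and without vehicle replicate 4 it was 1.05 and passed (edgeR adjusted p = 0.0205). Gdf15, a secreted TGF-beta relative often read as a marker of p53 activity and stress, had 2 counts in vehicle replicate 4 and none in the other 7 libraries, and was not tested.

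Per kilobase of exon, the members spanned a wide range of levels. With exon lengths of GENCODE M21, Ephx1 (154.4 CPM per kb in vehicle), Fas (146.8) and Rps27l (113.2) were the highest in vehicle cells. Phlda3 was at 75.8, Plk2 at 52.5, Trp53 at 42.9 and Mdm2 at 20.8 CPM per kb. The lowest of the tested members were Bbc3 at 1.97, Fdxr at 1.28 and Perp at 0.484 CPM per kb. These lengths come from a later annotation than the counts, and the counting annotation is not given in the sources used here.

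Promoter sequence was set beside these values because the members are grouped by a shared regulator. RefSeq start sites (GRCm38.p6) were found for 28 of the 35 members, with 39 starts in all. In the 250 bases before the start, the p53 decamer consensus was present at 9 of the 39 starts (23.1%), in 9 genes, against 7.13% of 32851 mouse starts. The consensus reads the same on both strands, and a pair of decamers at most 13 bases apart was found at none of the members' starts and at 0.0639% of all starts. Decamer matches in windows free of annotated exons are shown in capitals below, 5′ to 3′ on the gene's strand, to let the matched letters be compared between Rps27l, which rose, and members that did not pass.
Rps27l, chr9:66946188-66946227, plus strand: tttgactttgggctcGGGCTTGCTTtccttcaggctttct
Rps27l, chr9:66946291-66946330, plus strand: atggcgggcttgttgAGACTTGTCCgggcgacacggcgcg
Mdm2, chr10:117710920-117710959, minus strand: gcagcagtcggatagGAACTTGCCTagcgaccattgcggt
Polk, chr13:96519394-96519433, minus strand: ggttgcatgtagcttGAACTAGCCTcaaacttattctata
Bax, chr7:45467075-45467114, minus strand: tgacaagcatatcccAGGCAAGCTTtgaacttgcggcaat
Sesn1, chr10:41887251-41887290, plus strand: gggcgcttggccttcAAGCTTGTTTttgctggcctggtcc
Trp53, chr11:69580269-69580308, plus strand: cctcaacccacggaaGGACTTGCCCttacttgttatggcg

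Counted from the start site that follows each match, the decamers began at -210 and -107 for Rps27l, -186 for Mdm2 and -231 for Polk. They began at -201 for Bax, -173 for Sesn1 and -75 for Trp53. Rps27l, Polk and Sesn1 each had a further RefSeq start upstream of these matches. In these genes the matches thus lay downstream of that first start, and the 250 bases before it held no decamer. Log2 fold changes of the 9 tested genes with a decamer ran from -0.47 (Gadd45a) to 0.63 (Rps27l), with a median of 0.06, and 1 of them passed. For the 17 tested genes with a RefSeq start and no decamer there, the median was 0.13 and 2 passed. Perp, which rose, was among the members with no RefSeq start found and is in neither of these groups. A match is a description of letters, not of binding.

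Plk2 was the only member of the cell cycle group that rose, and Gtse1 had the group's largest log2 fold change. Both had no decamer before their starts and are shown for their A- and T-rich element instead. TTTAAA, which is one form of the cell cycle homology region and reads the same on both strands, is in capitals in the 100 bases before the start. It was present at 9 of the members' 39 starts (23.1%), in 8 genes, against 12.1% of all mouse starts. Besides Plk2 and Gtse1 these were Rps27l, which rose, and Mdm2, Mdm4, Polk, Ephx1 and Epha2, which did not pass. The other form, TTTGAA on either strand, was present at 7 of the 39 (17.9%), against 16% of all starts. Psrc1, also of the cell cycle group, had neither form before its starts. Whether any of these matches works as a cell cycle element was not tested.
Plk2, chr13:110394944-110395043, plus strand: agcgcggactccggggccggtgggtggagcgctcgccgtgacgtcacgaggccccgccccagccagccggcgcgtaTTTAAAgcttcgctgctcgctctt
Gtse1, chr15:85859607-85859706, plus strand: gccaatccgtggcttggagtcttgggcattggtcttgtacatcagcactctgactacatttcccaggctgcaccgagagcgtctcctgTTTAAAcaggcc

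Within the groups, many members were highest in the same libraries. This pattern was noticed in the values and is given as a description. S1P replicate 5 was the highest S1P library for 19 of 32 members (59.4%), against 32.8% of all tested genes. Vehicle replicate 1 was the highest vehicle library for 16 of 32 (50%), against 23.5% of all tested genes. Both held for 11 members (34.4%), against 11.8% of all genes. These 11 were Mdm2, Psrc1, Eda2r, Trp53inp1, Ei24, Zmat3, Polk, Ercc5, Rps27l, Ephx1 and Abhd4. The median deviation of a member from its own group's mean was 0.29 log2 units in S1P replicate 5 and 0.20 in vehicle replicate 1, and it was between -0.18 and -0.07 in the other 6 libraries. Over all tested genes these medians lay between -0.02 and 0.01.

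**Figure D3:**
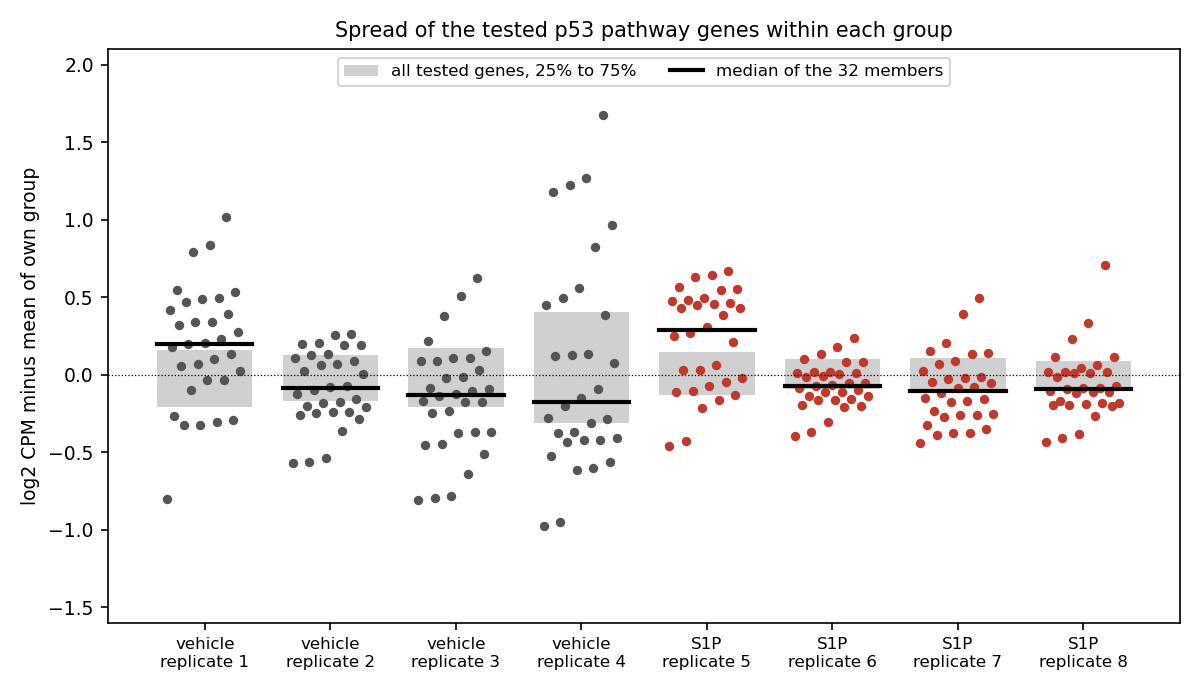
Deviation of each tested member (points) from the mean of its own group in log2 CPM, by library, with the members' median as a black line and the middle 50% of all tested genes as a grey band. The median lies at 0.20 in vehicle replicate 1 and 0.29 in S1P replicate 5 and below 0 in the other 6 libraries, and vehicle replicate 4 shows the widest scatter.

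Trp53inp1 was at 311.5, 176.0, 131.2 and 78.3 CPM in vehicle and at 236.9, 139.4, 175.4 and 152.2 CPM after S1P. Ephx1 was at 490.1, 268.7, 198.6 and 246.8 CPM in vehicle and at 452.1, 287.2, 213.1 and 251.9 CPM after S1P. Eda2r was at 68.1, 41.8, 37.4 and 19.6 CPM in vehicle and at 87.1, 51.2, 52.95 and 42.5 CPM after S1P. In each of these genes replicates 1 and 5 led their groups, and the groups overlapped. Replicates 1 and 5 both led their groups in 10 of 32 tested genes of a separate list of p53 targets (31.2%). They did so in 1 of 36 tested p53 regulators (2.78%) and in 11.8% of all tested genes. In the separate list S1P replicate 5 was highest in 23 genes (71.9%, against 32.8% of all tested genes). Vehicle replicate 1 was highest in 11 (34.4%, against 23.5%), close to vehicle replicate 3 with 10. Cdkn1a, the cyclin-dependent kinase inhibitor p21 and the best known p53 target, was at 264.5, 157.7, 122.7 and 131.1 CPM in vehicle. After S1P it was at 335.7, 149.7, 120.7 and 120.0 CPM. Ccng1, cyclin G1, was at 452.1, 367.8, 291.1 and 191.8 CPM in vehicle and at 725.4, 424.1, 450.3 and 435.4 CPM after S1P. Neither passed between groups (edgeR adjusted p = 0.883 and 0.182).

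The mean of the G2/M genes was lowest in the same libraries of each group, at 4.51 log2 CPM in vehicle replicate 1 (5.63 to 5.995 in the other vehicle libraries) and 6.985 in S1P replicate 5 (7.13 to 7.42 in the other S1P libraries). Vehicle replicate 1 was the lowest vehicle library for 15 of the 15 genes, against 23.6% of all tested genes. S1P replicate 5 was the lowest S1P library for 12, against 32.1% of all tested genes, with replicate 7 lowest for the other 3. The 15 genes were picked as a set of mitosis genes, so these counts are not separate observations. The part of the cell cycle genes in the members' spread was not tested. Mitochondrial counts did not set these libraries apart, at 3.69% in vehicle replicate 1 and 3.77% in S1P replicate 5. Of the 10 mesenchymal markers, Thy1, Col1a1, Col1a2 and Pdgfra were lowest in both libraries within their groups. S100a4 was highest in both, as were 11.8% of all tested genes, and the remaining markers were neither lowest in both nor highest in both. The share of all tested genes lowest in both libraries was not computed, so the markers are given as a description. What sets these libraries apart was not tested. With both of these libraries left out, Plk2 rose and Pltp fell, and Perp and Rps27l missed the threshold (edgeR adjusted p = 0.0519 and 0.0682). Fewer genes in general passed in that fit, with 3.95% of all tested genes higher and 2.35% lower. The labels do not link libraries of the different groups, so no pairing was used.

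**Figure D4:**
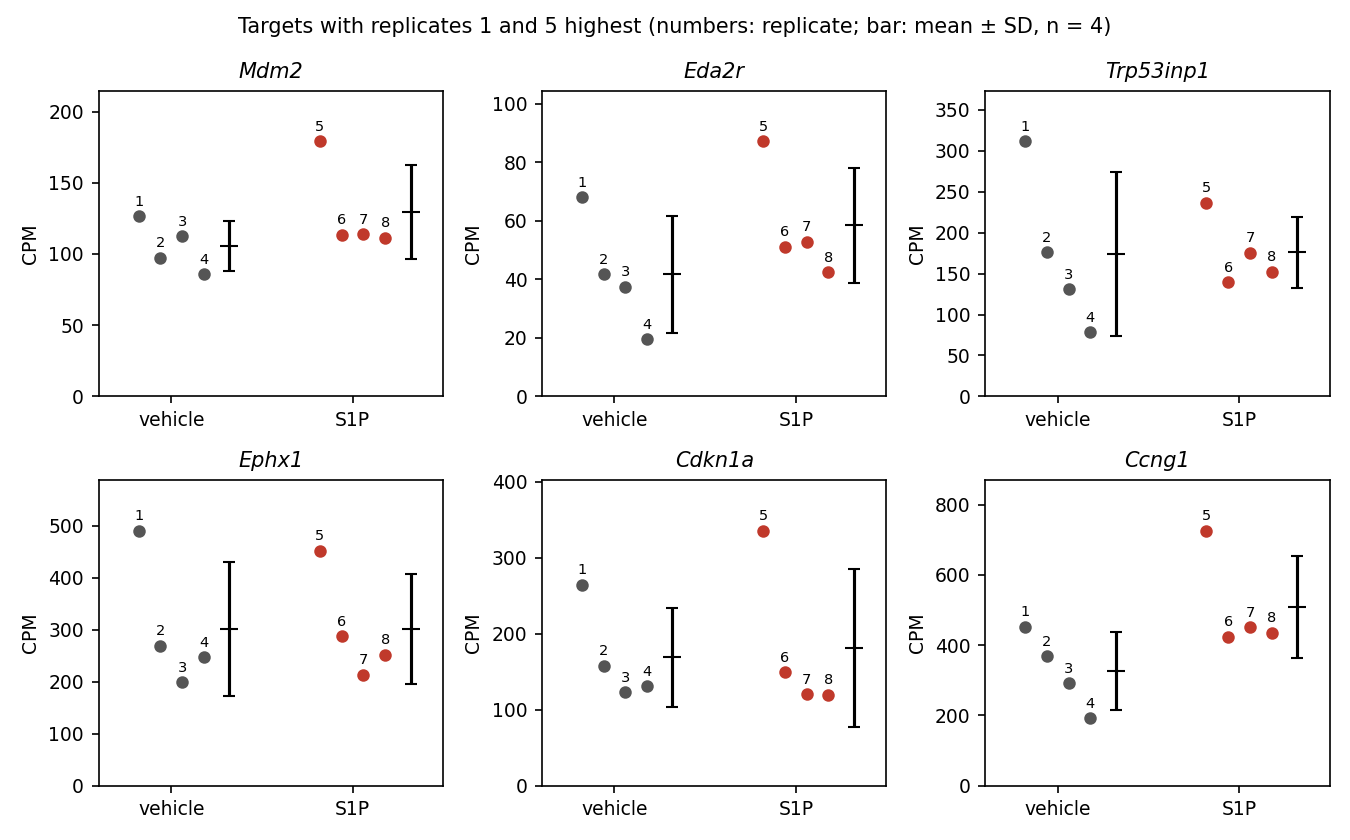
CPM by library for 4 members and for Cdkn1a and Ccng1, with replicate numbers beside the points and the mean ± SD (n = 4) as a black bar. In each panel replicate 1 is the highest vehicle point and replicate 5 the highest S1P point, as for Cdkn1a at 264.5 and 335.7 CPM. The genes were picked for this pattern, which 11 of 32 members and 10 of 32 genes of the separate target list had.

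Further targets of p53, from a list that excludes the members, were mostly uncalled. Of 36 listed genes 32 were tested, 1 rose, 2 fell and 29 did not pass, with a median log2 fold change of 0.02. Over all tested genes 5.6% rose and 2.9% fell (8.5% together), so the list's share of calls was close to that of genes in general. Steap3, a metalloreductase of endosomes, fell 1.98-fold, from 110.0, 79.2, 76.2 and 96.5 CPM to 57.4, 41.9, 41.1 and 42.8 CPM (edgeR adjusted p = 0.00699, log2 fold change -0.98 with an SE of 0.16). Foxo3, a forkhead factor of starvation and stress, fell 1.46-fold (edgeR adjusted p = 0.0176, log2 fold change -0.55 with an SE of 0.11), a call lost without vehicle replicate 2 or S1P replicate 6 or 8 (adjusted p at most 0.0781). Steap3 was called in all 8 leave-one-out fits, and its groups did not overlap. The largest log2 fold changes that did not pass were those of Igfbp3 (-2.01, edgeR adjusted p = 0.211), an insulin-like growth factor binding protein, and Crip2 (-1.45, edgeR adjusted p = 0.181), a LIM domain protein. Both depended on single libraries: Igfbp3 ranged from -2.95 (S1P replicate 7 left out) to -0.92 (vehicle replicate 3 left out), and Crip2 was at -0.73 without vehicle replicate 4.

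Among 36 tested genes that modify, bind or are related to p53, 2 rose, 1 fell and 33 did not pass. This share of calls was also close to that of all tested genes, of which 5.6% rose and 2.9% fell (8.5% together). The risers were the checkpoint kinases that act on p53 after DNA damage or stalled replication. Chek1 was at 8.52, 12.8, 14.2 and 9.44 CPM in vehicle and at 24.6, 36.2, 27.0 and 27.2 CPM after S1P. It rose 2.56-fold (edgeR adjusted p = 0.00509, log2 fold change 1.36 with an SE of 0.20). Chek2 was at 4.69, 8.83, 9.18 and 6.90 CPM in vehicle and at 18.7, 19.8, 19.6 and 20.1 CPM after S1P, and rose 2.64-fold (edgeR adjusted p = 0.0052, log2 fold change 1.40 with an SE of 0.21). Neither gene's groups overlapped, and both were called in all 8 leave-one-out fits. The G2/M genes described above rose in the same comparison, and their part in the checkpoint kinase values was not tested. Hipk2, a kinase that phosphorylates p53 in apoptosis, fell 1.76-fold, from 36.6, 37.1, 29.9 and 45.6 CPM to 25.3, 18.5, 19.8 and 20.8 CPM (edgeR adjusted p = 0.0136, log2 fold change -0.82 with an SE of 0.16). It lost its call without any of S1P replicates 6, 7 and 8 (adjusted p at most 0.0594). Atm, the apical kinase of the response to double-strand breaks, had a log2 fold change of 0.48 and did not pass (edgeR adjusted p = 0.0736), and Atr had one of 0.23. Zfp385a and Ppp1r13b, which encode proteins that bind p53, had the largest log2 fold changes of those that did not pass (-0.99 and -0.66), and without vehicle replicate 4 these were -0.23 and -0.28.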

How the data were processed

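The authors deposited whole-number read counts per Ensembl gene, with symbols and mm9 coordinates, for 8 RNA-seq libraries. The tool STAR 2.5.3a and the build mm9 are named in the submitters' processing notes. Which counter, annotation and strand setting were used is not stated there. The nearly equal totals leave the depth before deposit unknown. Columns were matched to samples by title. In R 4.3.3, genes passing filterByExpr (edgeR 4.0.16, minimum count 10) were scaled by TMM and tested with the robust quasi-likelihood test, treatment as the only term, with Benjamini-Hochberg adjustment over 11844 genes and a threshold of 0.05. The SE was taken from the F statistic. The fit was also run on simulated data, and the outcome is not reported here. A gene that did not pass is not thereby shown to be unchanged. DESeq2 1.42.0, limma 3.58.1 (voom), other scalings, other filters and left-out libraries were alternatives. The members and lists were chosen with earlier results of these data known. Values in every library are given for members that passed, the 3 core genes and the 4 others with the largest log2 fold change at a mean of at least 2 CPM. Of the other lists, called genes and the 2 largest uncalled ones are named. The 1 further target that rose is not reported here by name. Xpc, Bax, Cdkn1a, Ccng1, Atm, Atr, Eda2r, Ephx1 and Trp53inp1 were given in more detail after their values were seen. Promoter sequences are from RefSeq (GRCm38.p6). Their coordinates are not comparable with the mm9 gene positions.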

Additional observations from a re-analysis of the deposited data

Results flagged for a closer look

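In 11 of the 64 groups of 4 libraries (32 members, vehicle and S1P), a single library lay far from the other 3, where chance flags about 1 in 20 groups of independent normal values (gap over range above 0.829). The groups share the same 8 libraries. Over all tested genes, 10.9% of groups were past this ratio, 15.6% in vehicle and 6.23% in S1P, against 17.2% of the members' groups, 12.5% in vehicle (4 of 32) and 21.9% in S1P (7 of 32). In 6 of the 11 that library was S1P replicate 5. It was the highest S1P library for Mdm2 (179.0 CPM, others 111.4 to 113.9), Ei24 (201.1 CPM, others 132.7 to 138.1), Zmat3 (108.5 CPM, others 71.7 to 74.5), Polk (50.8 CPM, others 31.8 to 34.4) and Abhd4 (160.0 CPM, others 96.1 to 106.0). It was the lowest for Plk2 (313.2 CPM, others 456.2 to 475.8). Abhd4 was also high in vehicle replicate 1 (212.0 CPM, others 126.4 to 140.7). Vehicle replicate 4 was high for Bbc3 (10.4 CPM, others 1.78 to 2.49), Fdxr (7.63 CPM, others 2.08 to 2.49) and Trp53 (239.5 CPM, others 141.3 to 158.0). S1P replicate 7 was high for Fas (350.0 CPM, others 214.2 to 230.3).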

How the results depend on the processing

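No paired analysis was possible because the groups share no replicate numbers. With libraries left out 1 at a time, 0 to 4 members rose and 0 to 1 fell, with 333 to 1133 genes higher and 101 to 723 lower over all genes, 1 to 3 other targets higher and 1 to 3 lower, and 2 to 4 regulators higher and 0 to 1 lower. DESeq2 gave 5 members higher and 2 lower, 967 genes higher and 804 lower, and 2 other targets higher. With both vehicle replicate 4 and S1P replicate 5 left out, 5 members, 1178 genes, 2 other targets and 5 regulators were higher, and 934 genes and 5 other targets lower. Leaving out both vehicle replicate 1 and S1P replicate 5 was an alternative added after seeing the data. It gave 1 member higher and 1 lower, with 468 genes higher and 279 lower over all genes. In members that never passed, signs changed. Leaving out 1 library gave log2 fold changes from -0.21 to 0.10 for Trp53, -0.21 to 0.16 for Plk3, -0.21 to 0.41 for Bax, -0.11 to 0.28 for Aen, -0.004 to 0.27 for Phlda3, -0.23 to 0.43 for Trp53inp1, -0.11 to 0.14 for Ei24, -0.0246 to 0.26 for Zmat3, -0.26 to 0.0826 for Rrm2b, -0.57 to 0.29 for Fdxr and -0.26 to 0.31 for Ephx1. Without both vehicle replicate 4 and S1P replicate 5 they were 0.0898 for Trp53, 0.0145 for Plk3, 0.23 for Bax, -0.0072 for Eda2r, -0.41 for Trp53inp1, -0.28 for Ei24, -0.15 for Zmat3, -0.0176 for Ercc5, 0.29 for Fdxr and -0.35 for Ephx1. Without both vehicle replicate 1 and S1P replicate 5, Aen was at -0.12 and Rrm2b at 0.12. Ephx1 was at -0.0222 with RLE factors and DESeq2 and at -0.0023 with the stricter filter, Trp53inp1 at -0.0061 with RLE factors and -0.006 with DESeq2, and Bax at 0.0727 with limma-voom. The cause of these changes was not tested. Perp, with 6 to 19 counts per vehicle library, rests on the fewest reads of the members that passed.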
